A study of Mus musculus with 4 samples.

Results

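A set of 10 genes of mechanosensing and of the Hippo pathway was followed through 3 classes of bone and marrow stromal cells. They are the ion channels Piezo1 and Piezo2, the transcriptional regulators Yap1, Wwtr1 (which encodes TAZ) and Tead1, the pathway inhibitors Lats2 and Amotl2, and the secreted or matrix-bound proteins Ccn1, Ccn2 and Thbs1. The set was named gene by gene and all 10 were found among the 32286 features of the deposited matrices. The classes were Lepr+ CAR stromal-like cells (CAR, Cxcl12-abundant reticular), osteo-primed stromal-like cells and osteoblast-like cells, which held 565, 204 and 473 cells in the control pool and 352, 348 and 474 in the immobilized pool.

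The cells came from femurs and tibias of C57BL/6J mice of the genotype Tnfsf11tTA/+; LC1; R26-tdTomato, aged 10 weeks, which had received doxycycline before birth so that labelling was off in the fetus. In these mice a tetracycline transactivator expressed from 1 allele of Tnfsf11, the gene of RANKL, drives a Cre and through it a tdTomato reporter, so the sorted CD45.2-, Ter119- and tdTomato+ cells are those in which that locus was or had been active, and their descendants. Control mice (4 animals, 1 pool) were compared with mice after 2 weeks of hindlimb immobilization begun at 8 weeks of age (6 animals, 1 pool), and both limbs of each animal were used. Droplet 3' single-cell RNA-seq was run on each pool and sequenced in 2 lanes that differed by less than the sampling noise, so the lanes were averaged and each pool was 1 sample. Between 9960011 and 10860328 unique molecular identifiers (UMIs) were counted per lane. With 1 pool per group there was no replicate of either condition, no test was possible, and every interval printed here covers counting error only, neither the spread between animals nor that between cells.

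Piezo1 and Piezo2 are cation channels opened by membrane tension, and Piezo1 is known for its part in the response of bone-forming cells to load. YAP and TAZ are coactivators that enter the nucleus and bind TEAD factors when cells are spread or strained. The kinases LATS1 and LATS2 phosphorylate YAP and TAZ and keep them in the cytoplasm, and angiomotin family proteins such as AMOTL2 hold them there. Ccn1, Ccn2, Amotl2 and Lats2 are widely used target genes of YAP, TAZ and TEAD, so the last pair are targets as well as inhibitors, and Thbs1, which encodes the matrix glycoprotein thrombospondin-1, is also counted among the targets.

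No member was at least 1.5-fold higher in the immobilized pool in any of the 3 classes, and 2 members were at least 1.5-fold lower in at least 1 class. Thbs1 was lower in osteoblast-like cells, at 512 counts per 1000000 UMIs (CPM) in the control pool and 340 CPM in the immobilized pool, and in the osteo-primed class, at 97.8 and 63.6 CPM. Amotl2 was lower in CAR stromal-like cells, at 104 and 64.4 CPM. The other 7 compared, Piezo1, Yap1, Wwtr1, Tead1, Lats2, Ccn1 and Ccn2, differed by less than 1.5-fold in every class, and Piezo2 was close to absent from all 3. Ratios were taken on the log2 scale as immobilized over control and centred on the median of the class's genes, because the median gene of the osteoblast-like class lay 0.22 above 0 before centring, against 0.04 in the CAR stromal-like class and 0.01 in the osteo-primed class. A gene was compared when it had a mean lane count of at least 50 UMIs in at least 1 pool, and 9 of the 10 members, all but Piezo2, met this in each class. These 9 met it in both pools. Other genes near the minimum could be compared through their higher pool alone, which favours large ratios among them.

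**Figure D1:**
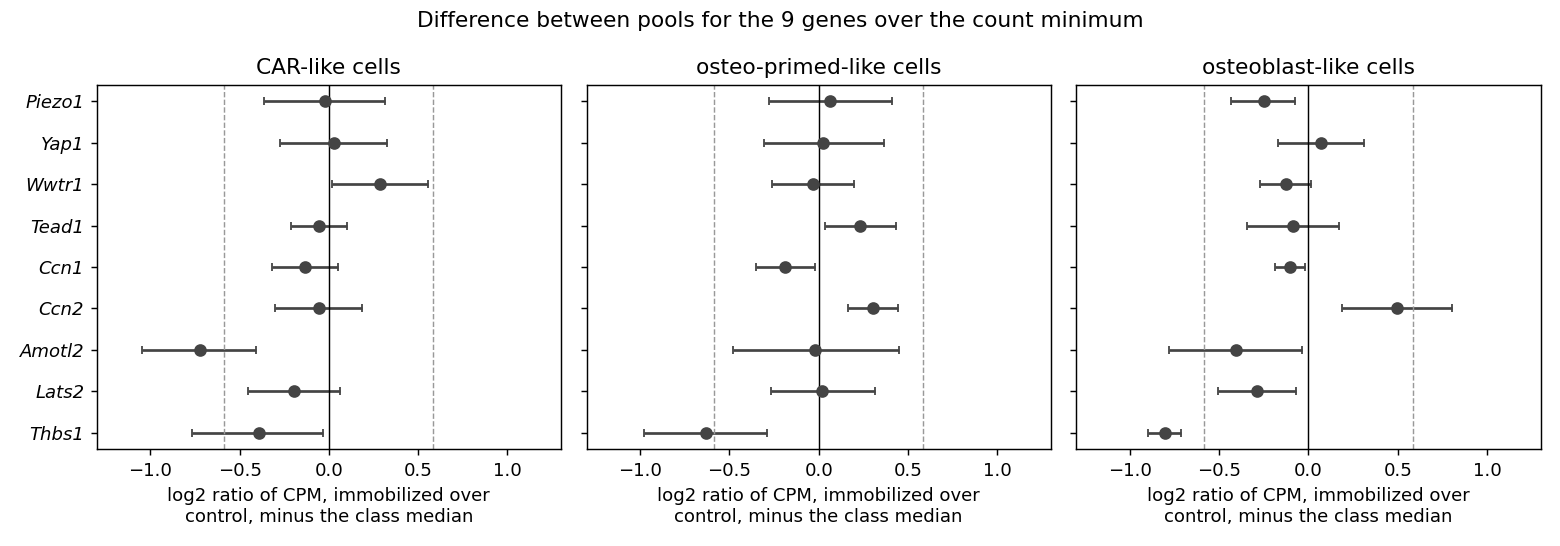
Centred log2 ratio of CPM (immobilized over control, x axis) for the 9 members over the count minimum (y axis) in each class; points are pool ratios, bars are exact 95% counting intervals and dashed lines mark 1.5-fold. Amotl2 in CAR stromal-like cells (-0.72) and Thbs1 in osteo-primed (-0.63) and osteoblast-like cells (-0.81) lie beyond the lower line, and no member lies beyond the upper one.

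The counts of members stand beside the shares of all genes compared. In CAR stromal-like cells 1 of 9 members was past 1.5-fold lower, where 4.5% of 7513 genes were, and 0 of 9 were higher, where 3.3% of genes were. In osteo-primed cells 1 of 9 was lower against 2.81% of 6587 genes, and 0 of 9 higher against 4.37%. In osteoblast-like cells 1 of 9 was lower against 9.67% of 8032 genes, and 0 of 9 higher against 5.86%. The median centred ratio of the 9 members was -0.06, 0.02 and -0.13 in the 3 classes, beside medians over all genes compared of -0.03, 0.03 and -0.015.

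Promoter sequences from RefSeq (GRCm38.p6, windows of 300 bases with 250 before and 50 after an annotated start) matched 6 of the 10 members by symbol. They are shown because TEAD factors are known to bind the word CATTCC, searched here on both strands as CATTCC and GGAATG, each the reverse complement of the other. The word occurs in 6 of the 8 member windows and in 14.7% of all 32851 windows. It occurs in windows of Ccn1, Amotl2, Yap1, Wwtr1 and Lats2 and not in that of Piezo1, and a match describes the letters only. The first sequences are the 250 bases before the start of Ccn1 (chr3:145649986-145650235, minus strand) and Amotl2 (chr9:102717554-102717803, plus strand), followed by 26 bases around the word for Yap1 (chr9:8004722-8004747), Wwtr1 (chr3:57576031-57576056) and Lats2 (chr14:57746104-57746129), all 3 on the minus strand. All run 5′ to 3′ with the word in capitals.
Ccn1: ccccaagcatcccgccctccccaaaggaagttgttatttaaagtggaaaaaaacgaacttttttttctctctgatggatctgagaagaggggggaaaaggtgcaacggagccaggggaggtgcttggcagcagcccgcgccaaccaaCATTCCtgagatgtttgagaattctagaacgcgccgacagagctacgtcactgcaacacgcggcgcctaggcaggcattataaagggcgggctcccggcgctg
Amotl2: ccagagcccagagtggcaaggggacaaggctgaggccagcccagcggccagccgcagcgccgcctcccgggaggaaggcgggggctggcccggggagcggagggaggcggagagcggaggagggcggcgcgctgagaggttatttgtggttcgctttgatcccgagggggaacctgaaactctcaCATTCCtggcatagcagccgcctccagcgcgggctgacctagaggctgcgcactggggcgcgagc
Yap1: ggagtctgcaGGAATGtagcgacgcg
Wwtr1: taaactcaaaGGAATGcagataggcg
Lats2: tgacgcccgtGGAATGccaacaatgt
The word begins 103 bases before the start in Ccn1, 65 in Amotl2 and 141 in Yap1. In Wwtr1 both annotated windows hold the same copy. In Lats2 it begins 4 bases after the start and only 1 of its 2 windows holds it.

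Marker levels in each class are given here. The same lists had named the clusters, so a high level of a list in its own class follows from the naming and is no separate check. All 12 CAR stromal markers had UMIs in the CAR stromal-like class, with a summed level of 39945 CPM in the control pool and 32779 CPM in the immobilized pool, against 193 to 4147 CPM in the other 2 classes. In the osteo-primed class 9 of its 10 markers had UMIs, all but Ostn, and the list summed to 47607.5 and 46909 CPM. Osteoblast markers summed to 15705 and 15020 CPM there, and to 142296 and 105603 CPM in the osteoblast-like class. In that class the 10 osteo-primed markers summed to 2708 and 6466 CPM and the 6 chondrocyte markers to 2313 and 603 CPM, so both lists moved with the pool, with Sost of the osteocyte list at 0 in the control pool. The free haematopoietic RNA list of 10 genes had a higher sum in the immobilized pool in each class, at 343 and 811 CPM, 152 and 330 CPM, and 107 and 228 CPM. The part of these markers in the members' differences was not tested.

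Piezo1 (chr8:122481698-122551329, minus strand; all gene positions are from GENCODE vM21 on GRCm38) was detected in all 3 classes. Its level was 68.9 CPM in the control pool and 69.8 CPM in the immobilized pool in CAR stromal-like cells, 79.4 and 83.9 CPM in osteo-primed cells, and 114 and 111 CPM in osteoblast-like cells. The pools lay close together in each class, and osteoblast-like cells were highest in both. Osteoblast-like over osteo-primed cells gave a ratio of 1.44 in the control pool (95% interval 1.18 to 1.76) and 1.32 in the immobilized pool (1.11 to 1.58), and the interval between osteo-primed and CAR stromal-like cells held 1 in both pools. The centred log2 ratio between pools was -0.02 in CAR stromal-like cells (-0.36 to 0.32), 0.06 in osteo-primed cells (-0.28 to 0.41) and, in the osteoblast-like class, -0.25 (-0.43 to -0.07). The last value follows the centring, since it was -0.04 on total counts.

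Piezo2, on chromosome 18, gave between 0 and 5.5 UMIs per class and pool. Its level was 2.19 CPM (0.760 to 4.92) and 1.08 CPM (0.131 to 3.90) in control and immobilized CAR stromal-like cells, 0.771 and 0.245 CPM in osteoblast-like cells, and 0.334 and 0 CPM in osteo-primed cells. No class exceeded 5 CPM, even at the upper end of its interval. A count of 0 in the immobilized osteo-primed cells allows up to 1.40 CPM, taken as 3 UMIs of the class's total, so no ratio between pools is given.

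The list of channel genes linked to mechanosensing held 24 genes. Of these 24 genes, 9 met the count minimum in CAR stromal-like cells, 9 in osteo-primed cells and 12 in osteoblast-like cells, and their median centred ratios were -0.03, 0.03 and -0.01. None of the 9 was past 1.5-fold in CAR stromal-like cells, where 3.3% of all genes were higher and 4.5% lower. In osteo-primed cells 1 of 9 was higher and 2 lower, where 4.37% and 2.81% of all genes were, and in osteoblast-like cells 1 of 12 was higher and 1 lower, where 5.86% and 9.67% were. Trpc6, a cation channel of the transient receptor potential family, was at 682 CPM in the control pool and 259 CPM in the immobilized pool in osteo-primed cells (log2 ratio -1.41, -1.56 to -1.26) and at 122 and 72.7 CPM in osteoblast-like cells (-0.96, -1.17 to -0.76). Trpv4, a channel of the same superfamily that responds to cell swelling, differed the other way, from 9.35 to 24.5 CPM in osteo-primed cells (1.34, 0.50 to 2.34) and from 18.4 to 38.6 CPM in osteoblast-like cells (0.85, 0.48 to 1.23). In osteo-primed cells Trpv4 met the count minimum in the immobilized pool only. Lrrc8a, an essential subunit of volume-regulated anion channels, was at 36.4 and 17.0 CPM in osteo-primed cells (-1.10, -1.76 to -0.48) and met the minimum there in the control pool only. Kcnk2, a stretch-opened potassium channel that also served as an osteo-primed marker, was at 537 and 486 CPM there.

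Yap1 (chr9:7931999-8004596, minus strand) was nearly level across pools after centring. Its CPM was 84.4 in the control pool and 88.4 in the immobilized pool in CAR stromal-like cells, 84.1 and 86.5 in osteo-primed cells and 56.9 and 69.3 in osteoblast-like cells. Osteoblast-like cells were lowest in both pools, while CAR stromal-like and osteo-primed cells did not differ beyond counting error, with a ratio of 1.00 in the control pool (0.80 to 1.26). The interval of the centred ratio between pools held 0 in every class, with values of 0.03, 0.02 and 0.07. The last value follows the centring, since it was 0.28 on total counts.

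Wwtr1 (chr3:57455649-57575910, minus strand) had another order. Its level was 96.0 CPM in the control pool and 120 CPM in the immobilized pool in CAR stromal-like cells, 179 and 177 CPM in osteo-primed cells and 172 and 183 CPM in osteoblast-like cells. CAR stromal-like cells were lowest in both pools, 1.79-fold under osteoblast-like cells in the control pool (1.56 to 2.08) and 1.52-fold in the immobilized pool (1.31 to 1.78). Osteo-primed and osteoblast-like cells did not differ beyond counting error in either pool. The centred ratio between pools was 0.29 in CAR stromal-like cells (0.02 to 0.55), -0.03 in osteo-primed cells (-0.26 to 0.20) and, in the osteoblast-like class, -0.13 (-0.27 to 0.01). The last value was 0.09 on total counts and 0.34 with each cluster given the same weight in both pools. In that class the interval lay above 0 in cluster 8 (0.37, 0.09 to 0.65) and cluster 10 (0.29, 0.02 to 0.55). It held 0 in clusters 3 and 9.

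Tead1 (chr7:112679318-112906807, plus strand) separated the classes more than Yap1 or Wwtr1 did. It was at 306 and 303 CPM in control and immobilized CAR stromal-like cells, 224 and 266 CPM in osteo-primed cells and 52.7 and 57.6 CPM in osteoblast-like cells. CAR stromal-like cells exceeded osteoblast-like cells 5.81-fold in the control pool (5.05 to 6.69) and 5.26-fold in the immobilized pool (4.51 to 6.16). Between pools the ratio was 0.23 in osteo-primed cells (0.04 to 0.43), and the intervals of the other 2 classes held 0. Of the 8 YAP, TAZ and TEAD factors and cofactors listed, 1 was past 1.5-fold in any class. That gene was Tead3, higher in osteoblast-like cells, where 5.86% of all genes compared were, at 5.88 and 12.7 CPM (0.89, 0.23 to 1.60). Tead3 met the count minimum in the immobilized pool only.

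**Figure D2:**
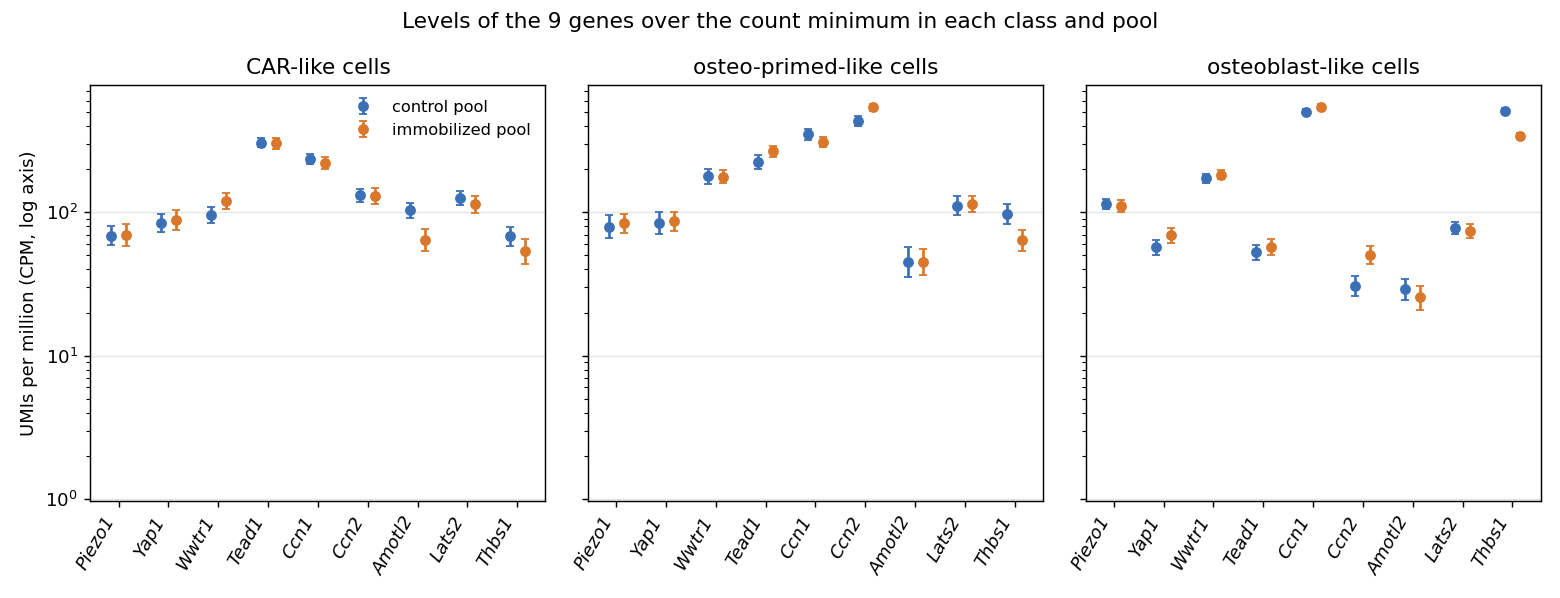
Level in CPM (log axis) of the 9 members over the count minimum in each class, for the control pool (blue) and the immobilized pool (orange), with exact Poisson 95% intervals. The spread between classes is widest for Tead1, Ccn2 and Thbs1. Their lowest classes lie at 52.7, 30.8 and 68.3 CPM in the control pool and their highest at 306, 433 and 512 CPM.

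Amotl2 (chr9:102716672-102733418, plus strand) was highest in CAR stromal-like cells, at 104 CPM in the control pool (91.3 to 117) and 64.4 CPM in the immobilized pool (53.4 to 77.1), and the intervals did not overlap. Osteo-primed cells had 45.4 and 45.2 CPM and osteoblast-like cells 29.1 and 25.5 CPM, and this order was the same in both pools. The centred ratio in CAR stromal-like cells was -0.72 (-1.05 to -0.41), which is 1.65-fold lower, and it was -0.02 in osteo-primed cells (-0.48 to 0.45) and, in the osteoblast-like class, -0.41 (-0.78 to -0.04), the last being -0.19 on total counts. The 5 CAR clusters did not hold the 2 pools alike: clusters 0 and 14 had 195 and 208 control cells but 65 and 74 immobilized cells, and cluster 2 had 18 and 148. Cluster 2 had the lowest control level of the 5, at 35.4 CPM in the control pool (3 UMIs) and 31.9 CPM in the immobilized pool.

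Within clusters the difference in Amotl2 was uneven. Cluster 7, led by Sparcl1, Ncam2 and Cxcl5, had 97.3 and 26.4 CPM (-1.80, -3.61 to -0.61, from 5 UMIs in the immobilized pool). Cluster 5, led by the lipid genes Fabp4, Plin1 and Cfd, had 96.1 and 67.3 CPM, and cluster 14 had 99.2 and 86.6 CPM. Cluster 0 went the other way, at 122 and 139 CPM. With each cluster given the same weight in both pools the class ratio was -0.25, without cluster 2 it was -0.30, and under a stricter cell filter (1000 genes, 5% mitochondrial UMIs) it was -0.25. It was also short of 1.5-fold in female cells alone (-0.51), with stress strata weighted alike (-0.58) and without lane 2 (-0.58), and it was lower in all 17 alternatives tried.

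Lats2 (chr14:57689662-57758388, minus strand) stayed within counting error in CAR stromal-like cells, at 126 CPM in the control pool and 113 CPM in the immobilized pool, and in osteo-primed cells, at 111 and 114 CPM. In osteoblast-like cells it was at 78.1 and 74.3 CPM, a centred ratio of -0.29 (-0.51 to -0.07) that was -0.07 on total counts. Osteoblast-like cells were lowest in both pools. Of the 24 Hippo kinases and regulators listed, 22 were compared in CAR stromal-like cells, 21 in osteo-primed and 21 in osteoblast-like cells, with medians of 0.06, 0.08 and 0.07. Amotl2 in CAR stromal-like cells was the only one past 1.5-fold there, where 3.3% of all genes compared were higher and 4.5% lower. None was past it in osteo-primed cells, against 4.37% and 2.81%. In osteoblast-like cells 2 were higher and 1 lower, against 5.86% and 9.67%. The higher pair were Ptpn14, a phosphatase that binds YAP, at 93.4 and 174 CPM (0.68, 0.51 to 0.85), and Frmd6, an upstream adaptor, at 138 and 257 CPM (0.68, 0.54 to 0.82). The lower one was Rassf1, which binds the MST kinases, at 72.5 and 52.8 CPM (-0.67, -0.92 to -0.43). In osteo-primed cells Nf2, which encodes the Hippo activator merlin, was at 44.4 and 66.7 CPM (0.57, 0.14 to 1.02) and Frmd6 at 219 and 317 CPM (0.52, 0.32 to 0.71), both under the 1.5-fold line.

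Ccn1 (chr3:145646976-145649981, minus strand), which encodes a matricellular protein and is also an immediate early gene, was highest in osteoblast-like cells. Its level was 503 CPM in the control pool (484 to 523) and 544 CPM in the immobilized pool (522 to 567) in that class, 350 and 311 CPM in osteo-primed cells, and 236 and 221 CPM in CAR stromal-like cells, the same order in both pools. The centred ratio was -0.13 in CAR stromal-like cells (-0.32 to 0.05), -0.19 in osteo-primed cells (-0.35 to -0.02) and, in the osteoblast-like class, -0.10 (-0.18 to -0.02), and the last became 0.11 on total counts.

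The pooled values of Ccn1 hide larger differences within clusters. In osteoblast-like cells the immobilized pool was higher in clusters 8 (1113 and 1554 CPM), 9 (121 and 277 CPM) and 10 (460 and 752 CPM) and near level in cluster 3 (449 and 477 CPM). Cluster 8, which had the highest level and Atf3 among its leading genes, held 113 control cells and 39 immobilized cells. With each cluster given the same weight in both pools the class ratio was 0.44, and without cluster 8 it was 0.33. In CAR stromal-like cells the immobilized pool was higher in clusters 0 (199 and 323 CPM) and 14 (229 and 326 CPM) and lower in clusters 2 (484 and 194 CPM), 5 (218 and 104 CPM) and 7 (267 and 100 CPM). The CAR stromal-like ratio with equal cluster weights was -0.15.

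**Figure D3:**
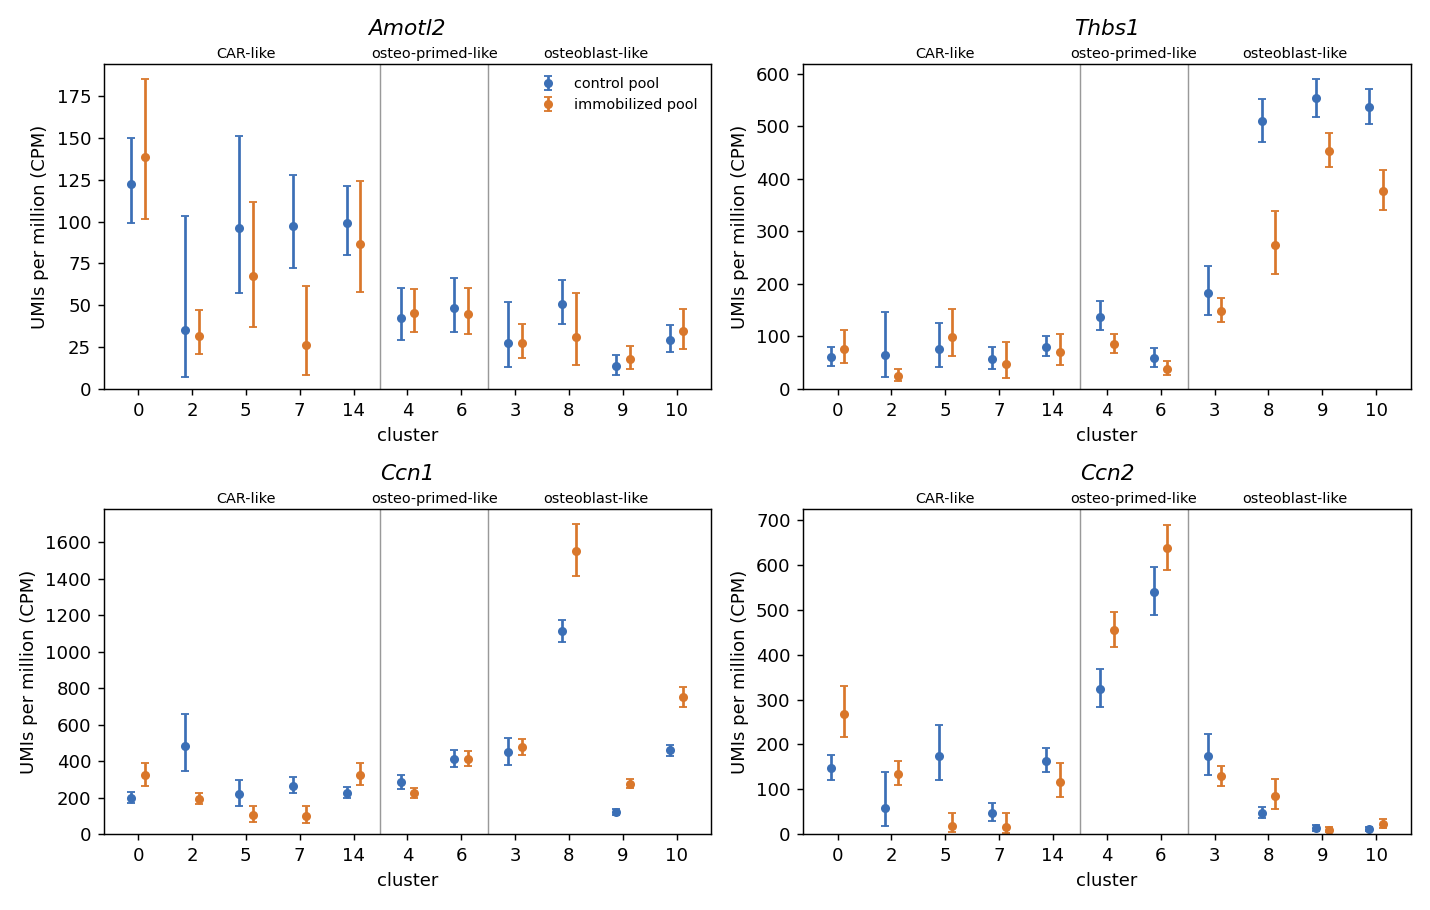
Level in CPM (y axis) of Amotl2, Thbs1, Ccn1 and Ccn2 in each cluster of the 3 classes (x axis, cluster number) in the control pool (blue) and the immobilized pool (orange), with exact Poisson 95% intervals. Thbs1 is lower in the immobilized pool in all 4 osteoblast-like clusters, Ccn1 is higher in clusters 8, 9 and 10, Ccn2 is higher in both osteo-primed clusters, and Amotl2 is lowest among CAR clusters in cluster 2 for the control pool and cluster 7 for the immobilized pool.

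Ccn2 (chr10:24595442-24598683, plus strand), which encodes connective tissue growth factor, was highest of the 3 classes in osteo-primed cells. It was at 433 CPM in the control pool (401 to 468) and 539 CPM in the immobilized pool (509 to 571) there, at 131 and 130 CPM in CAR stromal-like cells, and at 30.8 and 50.5 CPM in osteoblast-like cells. The 3 classes kept this order in both pools, with osteo-primed over osteoblast-like cells 14.1-fold in the control pool (11.8 to 16.8) and 10.7-fold in the immobilized pool (9.21 to 12.5). After each cell was thinned to 2000 UMIs, 45.5% of control and 45.6% of immobilized osteo-primed cells had a Ccn2 UMI, against 0% of 45 control (exact interval to 7.87%) and 1.63% of 61.5 immobilized haematopoietic-like cells, numbers of cells being means of 2 lanes. Unthinned shares were 64.0% and 63.5% of osteo-primed cells, at median depths of 5969 and 5527 UMIs, and 2.17% and 0.90% of haematopoietic-like cells, at 2854.5 and 2209 UMIs. Thinning left out 3 and 6 osteo-primed cells.

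In osteo-primed cells the centred ratio of Ccn2 was 0.30 (0.16 to 0.44), and both clusters were higher in the immobilized pool, at 323 and 454 CPM in cluster 4 and 540 and 638 CPM in cluster 6. The pools were nearly level in osteo-primed cells with a low share of immediate early and heat shock genes, as given below. In CAR stromal-like cells the ratio was -0.06 (-0.30 to 0.19), but the clusters lay on both sides of it. Cluster 0 was at 147 and 269 CPM (0.84, 0.42 to 1.25), cluster 14 at 164 and 117 CPM (-0.52, -1.08 to -0.02) and cluster 5 at 174 and 18.6 CPM (-3.12, -5.23 to -1.78, from 4 UMIs in the immobilized pool). The intervals of clusters 2 and 7 held 0. In osteoblast-like cells it was 0.49 (0.19 to 0.80), and 0.71, past 1.5-fold, on total counts. Cluster 3 gave 59.5 of 160 control UMIs and 140 of 206 immobilized UMIs of the class, from 51 and 146 cells. Inside cluster 3 the level was 173 and 129 CPM, lower in the immobilized pool. With each cluster given the same weight in both pools the osteoblast-like ratio was -0.15. The 10 osteo-primed markers summed to 2708 and 6466 CPM in this class, and their part in the difference was not tested.

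Thbs1 (chr2:118111876-118127133, plus strand) was highest in osteoblast-like cells. The lanes gave 514 and 511 CPM in the control pool and 339 and 342 CPM in the immobilized pool, a mean of 512 CPM (493 to 532) against 340 CPM (323 to 359). Osteo-primed cells had 97.8 CPM (82.6 to 115) and 63.6 CPM (53.4 to 75.3), and CAR stromal-like cells had 68.3 and 53.4 CPM, so the immobilized pool was lower in all 3. The centred ratio was -0.81 in osteoblast-like cells (-0.90 to -0.71), 1.75-fold lower, and -0.59 on total counts. It was -0.63 in osteo-primed cells (-0.98 to -0.29), 1.55-fold lower, and past 1.5-fold in 10 of 16 alternatives. The exceptions were the stricter cell filter (-0.51), clustering without the listed genes (-0.55), female cells (-0.47), male cells (-0.32), stress strata weighted alike (-0.57) and sexes weighted alike (-0.44). It was -0.39 in CAR stromal-like cells (-0.77 to -0.03), under the 1.5-fold line. After thinning, 52.5% of control and 33.2% of immobilized osteoblast-like cells had a Thbs1 UMI (83.3% and 62.3% unthinned, median depths 9714 and 8160 UMIs).

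All 4 osteoblast-like clusters had less Thbs1 in the immobilized pool, at 184 and 149 CPM in cluster 3, 510 and 274 CPM in cluster 8, 553 and 454 CPM in cluster 9 and 537 and 377 CPM in cluster 10. The counting interval of the centred ratio lay below 0 in each, from -0.50 in cluster 9 (-0.64 to -0.36) to -1.10 in cluster 8 (-1.45 to -0.78). With equal cluster weights the class ratio was -0.58, just short of 1.5-fold. Clusters 10 and 9 held most control cells of the class (159 and 150) and clusters 9 and 3 most immobilized cells (186 and 146). Both osteo-primed clusters were lower too, at 138 and 85.5 CPM in cluster 4 and 58.7 and 38.3 CPM in cluster 6. The interval lay below 0 in cluster 4 (-0.70, -1.12 to -0.29) and held 0 in cluster 6 (-0.63, -1.29 to 0.03). In CAR stromal-like cells the clusters were mixed, and without cluster 2 the class ratio was 0.08. In haematopoietic-like cells Thbs1 was at 249 and 62.7 CPM, almost all of it in granulocyte-like cells, and erythroid-like cells had 0 and 7.80 CPM.

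Immediate early and heat shock genes, which tissue dissociation can induce, differed between the pools and went with some members. Whether dissociation induced them here was not tested. The 31 immediate early and heat shock genes listed, none of them a member, summed to 2165 CPM in the control pool and 1442 CPM in the immobilized pool in CAR stromal-like cells, 5772 and 4348 CPM in osteo-primed cells, and 6406 and 4577 CPM in osteoblast-like cells. Of those compared, 21 of 21, 23 of 25 and 24 of 28 lay below 0, with medians of -0.70, -0.51 and -0.79, and the part of this difference in those of the members was not tested as a cause. Cells of each class were then divided at the class median of this list's share of UMIs. In the control pool Ccn1 was at 105 CPM in CAR stromal-like cells at or under the median and 327 CPM in those over it, at 91.5 and 605 CPM in osteo-primed cells, and at 164 and 771 CPM in osteoblast-like cells. Wwtr1 in osteo-primed cells was at 112 and 245 CPM and in osteoblast-like cells at 95.2 and 233 CPM. Amotl2 was also higher in cells over the median in each class, at 76.4 and 123 CPM, 21.5 and 68.9 CPM, and 13.8 and 41.2 CPM. Thbs1 in osteoblast-like cells was not, at 507 and 517 CPM.

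Comparing pools within those strata changed some members and not others. Among osteoblast-like cells at or under the median, Thbs1 was at 507 CPM in the control pool and 353 CPM in the immobilized pool, and among those over it at 517 and 325 CPM, so the immobilized pool was lower on both sides. With stress strata, cut at the class tertiles, weighted alike in both pools the Thbs1 ratio was -0.82 in osteoblast-like cells and -0.57 in osteo-primed cells, and the Amotl2 ratio in CAR stromal-like cells was -0.58. Ccn1 was above 0 in the same weighting in CAR stromal-like cells (0.31) and osteoblast-like cells (0.18) and below 0 in osteo-primed cells (-0.05). Ccn2 in osteo-primed cells at or under the median was at 299 CPM in the control pool and 306 CPM in the immobilized pool (0.05). In those over the median Ccn2 was at 565 and 789 CPM. Across cells of a class and pool, Pearson's r between the log share of this list and log Ccn1 ranged from 0.36 in 352 immobilized CAR stromal-like cells to 0.72 in 473 control osteoblast-like cells. For Thbs1 r ranged from -0.04 to 0.12. These cells share a library and their depth, and no test was made.

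**Figure D4:**
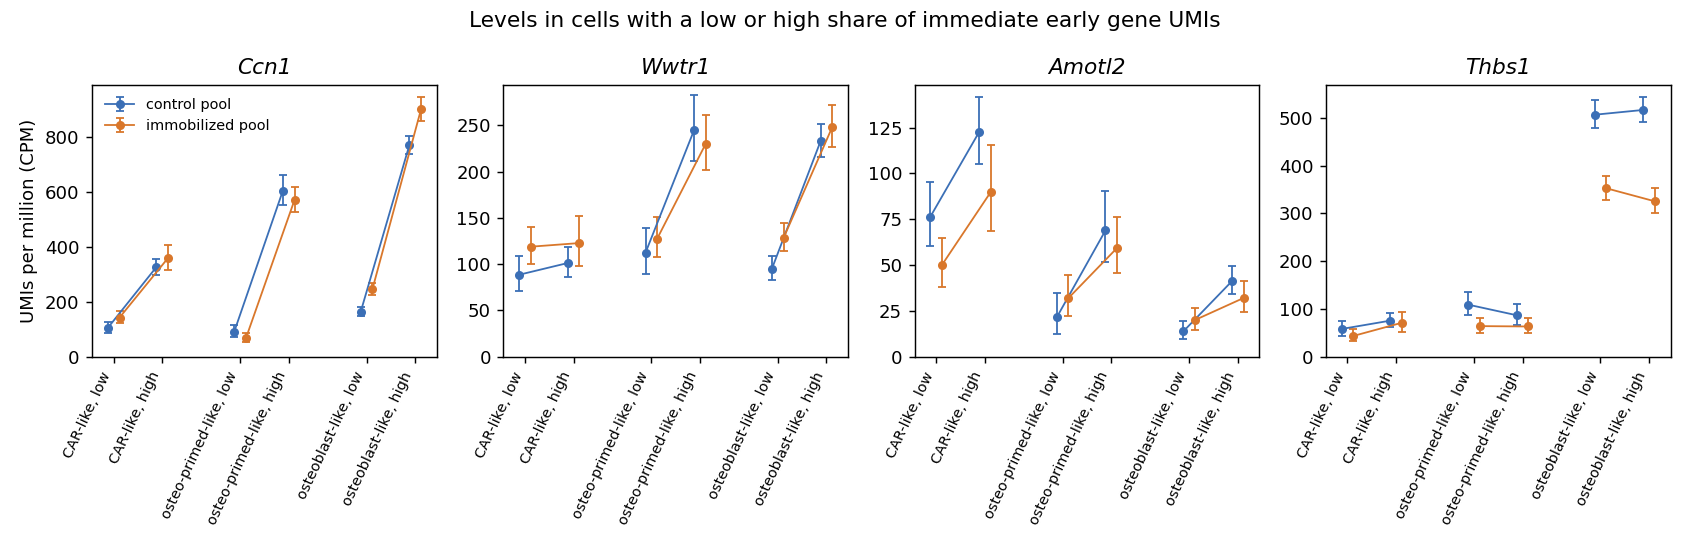
Level in CPM (y axis) of Ccn1, Wwtr1, Amotl2 and Thbs1 in cells at or under (low) and over (high) their class median of the dissociation and immediate early list's UMI share, by class, for the control pool (blue) and the immobilized pool (orange), with exact Poisson 95% intervals. Ccn1 in control osteoblast-like cells goes from 164 to 771 CPM while Thbs1 stays at 507 and 517 CPM.

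The pools differed in sex makeup, which was read from the cells. Female cells were 47.8% of sexed CAR stromal-like cells in the control pool and 30.0% in the immobilized pool, 66.1% and 55.0% of osteo-primed cells, and 92.9% and 77.4% of osteoblast-like cells. In 420 control and 342 immobilized female osteoblast-like cells Thbs1 was at 538 and 374 CPM (-0.78, -0.88 to -0.67). In 32 control and 100 immobilized male cells it was at 183 and 229 CPM (0.39, -0.04 to 0.88). In osteo-primed cells both sexes were lower, at 124 and 91.9 CPM in female cells (-0.47, -0.85 to -0.09), with male cells at 31.1 and 24.5 CPM (-0.32, -1.38 to 0.85). Weighting the sexes alike in both pools gave -0.62 in osteoblast-like and -0.44 in osteo-primed cells. Amotl2 in CAR stromal-like cells was lower in both, at 98.5 and 72.1 CPM in female cells (-0.51, -1.12 to 0.04), with male cells at 117 and 61.1 CPM (-0.96, -1.39 to -0.54). The difference between sexes was not tested.

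Beyond the members, the target genes of YAP and TAZ did not share a direction. Of the 23 listed, which include 5 members, 17 were compared in CAR stromal-like cells, 13 in osteo-primed cells and 12 in osteoblast-like cells, with medians of -0.06, 0.02 and 0.15. Those past 1.5-fold higher were 2, 1 and 1, against 3.3%, 4.37% and 5.86% of all genes compared. Those past it lower were 1, 1 and 1, each time a member, against 4.5%, 2.81% and 9.67%. Igfbp3, which encodes an IGF-binding protein, was at 154 and 286 CPM in CAR stromal-like cells (0.85, 0.66 to 1.05), and Axl, a receptor tyrosine kinase gene, at 24.7 and 38.3 CPM (0.59, 0.08 to 1.11). Tgfb2, which encodes a TGF-beta ligand, was at 8.34 and 46.6 CPM in osteo-primed cells (2.42, 1.62 to 3.45), the largest ratio among the genes of that list compared in the 3 classes. Tgfb2 met the count minimum there in the immobilized pool only.

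The CCN and thrombospondin family, 11 genes that include Ccn1, Ccn2 and Thbs1, had medians of -0.22, -0.32 and -0.28 among 6, 7 and 6 genes compared. Comp, which encodes a cartilage thrombospondin, was at 43.4 and 14.8 CPM in CAR stromal-like cells (-1.57, -2.25 to -0.98) and at 102 and 66.7 CPM in osteo-primed cells (-0.63, -0.97 to -0.29). In CAR stromal-like cells Comp met the count minimum in the control pool only. Thbs2 differed the other way in CAR stromal-like cells, at 48.8 and 82.0 CPM (0.71, 0.36 to 1.06). Ccn5 was at 85.5 and 49.7 CPM in osteo-primed cells (-0.80, -1.18 to -0.41). Genes of the SRF and MRTF cytoskeletal program had medians of 0.02, -0.09 and -0.15 among 17, 17 and 13 compared, and focal adhesion and nuclear envelope genes 0.00, -0.05 and 0.01 among 21, 20 and 22.

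**Figure D5:**
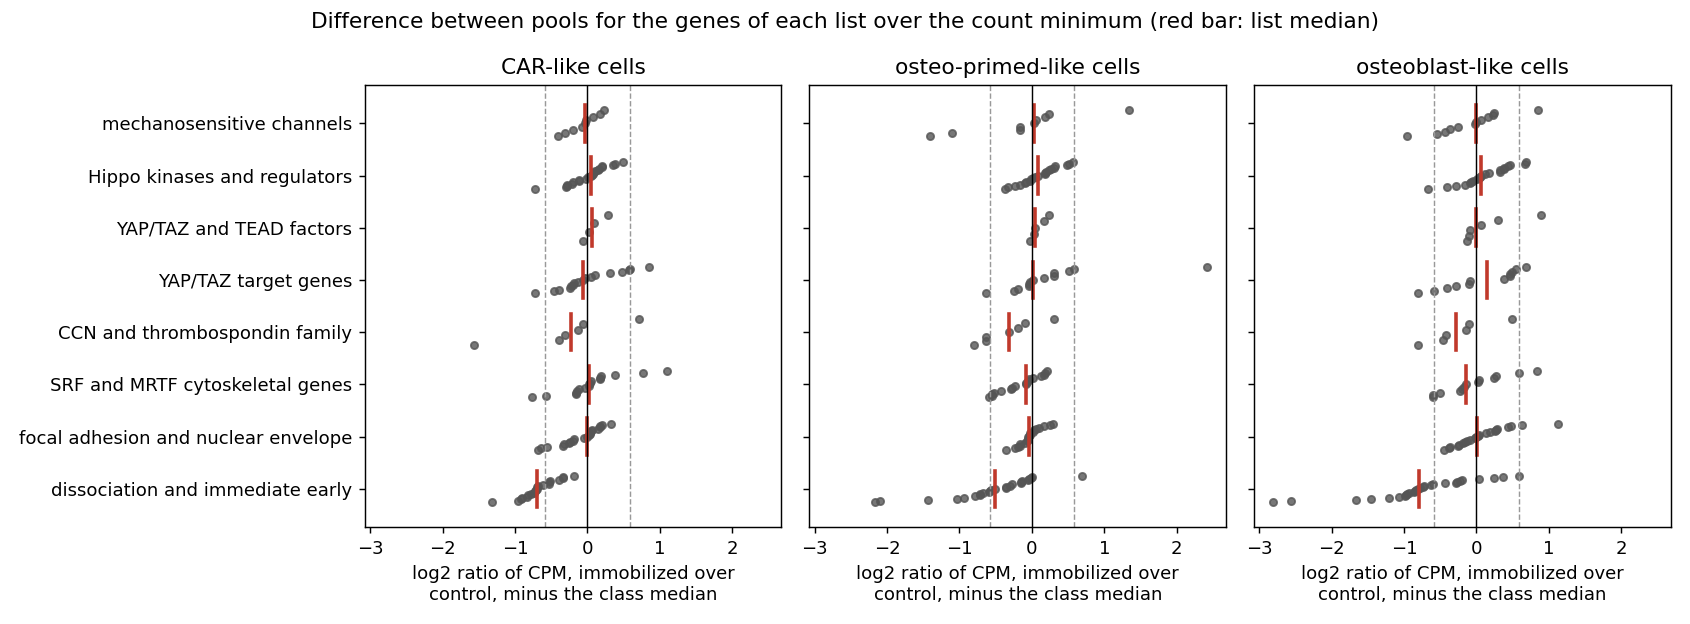
Centred log2 ratio (immobilized over control, x axis) of each gene over the count minimum (grey points) in 8 gene lists (y axis) in each class, with list medians in red and dashed lines at 1.5-fold. The dissociation and immediate early list lies lower in every class (medians -0.70, -0.51 and -0.79), while the medians of the channel, Hippo and YAP/TAZ lists lie between -0.06 and 0.15.

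Across 28 sums of cells by cluster and pool, the members did not form 1 block. Pearson's r of log2(CPM + 10) was 0.90 between Ccn1 and Wwtr1, 0.86 between Tead1 and Yap1, and 0.85 between Wwtr1 and Yap1. It was 0.82 between Amotl2 and Tead1, 0.81 between Ccn2 and Tead1, and 0.80 between Ccn1 and Yap1. Thbs1 had its lowest r with Tead1 (-0.48) and Ccn2 (-0.39) and its highest with Ccn1 (0.29). Among 5956 other genes, the pattern most like Ccn1 was that of its fellow member Wwtr1, most like Tead1 was Ppfibp1 (r = 0.96), most like Yap1 was Lhfp (0.96), most like Wwtr1 was Luzp1 (0.94) and most like Amotl2 was Atn1 (0.90). The closest to Ccn2 was Tnc (0.89), to Thbs1 Serf2 (0.86), to Piezo1 Phtf2 (0.83) and to Lats2 Ski (0.81). The points share libraries and cell classes, and these values describe likeness only.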

How the data were processed

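Single-cell 3' RNA-seq counts of the control and immobilized pools were analysed. The authors made the deposited counts, whole UMIs per gene and cell barcode, with Cell Ranger 7.0.0 on mm10, per the submitters' processing notes. The members and gene lists were chosen with earlier results of these data known.

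Barcodes present in both lanes of a pool were kept (1617 control, 1747 immobilized). Lane counts differed by less than the sampling noise (mean chi-square per gene 0.534 and 0.586) and were averaged. Cells with at least 500 genes and under 10% mitochondrial UMIs were retained. Before filtering the median mitochondrial share was 3.62% in the control pool and 5.13% in the immobilized pool. The 10% limit took out 146 and 300 barcodes, some also under the gene minimum. The part of this difference in cell quality in the members' ratios was not tested. Scrublet calls were removed (18 and 9), leaving 1411 and 1394 cells. Only 3 barcodes occurred in both pools. Cells were clustered with scanpy 1.11.5 (2000 variable genes, 30 components, 15 neighbours, Leiden resolution 1.0) into 18 clusters. A cluster was named where at least 3 markers and 30% of a list were 2-fold higher in it and in at least 10% of its cells. This naming rule was chosen with the clustering already in view. UMIs were summed per class and pool. Levels have exact Poisson, ratios exact conditional binomial and shares Clopper-Pearson 95% intervals. Ratios used a pseudocount of 0.5. Genes named outside the members were those with the highest or lowest ratios of each list, up to 4 each way in a class, over the count minimum. The scripts were tested on simulated data. Alternatives covered scaling, cell filters, doublets, clustering, cell mix, sex, stress share, lanes and thresholds. The weighting by sex and the runs without clusters 2 and 8 were added after seeing the data.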

Additional observations from a re-analysis of the deposited data

Results flagged for a closer look

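The following 3 centred ratios had opposite signs in female and male cells, with each sex's counting interval clear of 0, and in none was the difference between sexes tested. Ccn2 in CAR stromal-like cells was at 168 CPM in control and 91.2 CPM in immobilized female cells (log2 ratio -0.94, -1.47 to -0.47) and at 102 and 156 CPM in male cells (0.58, 0.24 to 0.92), which cancelled in the class as a whole. Ccn1 in osteo-primed cells was at 349 and 427 CPM in female cells (0.25, 0.05 to 0.45) and at 350 and 170 CPM in male cells (-0.99, -1.34 to -0.65), of which there were 64 and 143. Ccn1 in osteoblast-like cells was at 521 and 571 CPM in female cells (-0.12, -0.21 to -0.03, after centring) and at 336 and 453 CPM in 32 and 100 male cells (0.50, 0.18 to 0.85). There the level itself was higher in immobilized cells of both sexes, so the opposite signs depend on the centring. Each sex within a pool comes from an unstated number of animals.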

How the results depend on the processing

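No paired analysis was possible because the lane numbers shared by the pools only mark sequencing lanes of the same pool. With 1 pool per group, animal spread is unknown, and depth limits Piezo2 most. Of 496 alternative values of member ratios, 77 had another sign than the reported one, 18 of them where the reported interval was clear of 0; those 18 are given here. The cause of these changes was not tested.

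In osteoblast-like cells Ccn1 turned positive on total counts (0.11), with the looser cell filter (0.00314), equal cluster mix (0.44), male cells (0.50), cells at or under the median stress share (0.36), equal stress mix (0.18), equal sex mix (0.0143) and without cluster 8 (0.33). Ccn2 there turned negative with the stricter filter (-0.32), looser filter (-0.0386), equal cluster mix (-0.15) and male cells (-0.36). In male osteoblast-like cells Piezo1 was 0.57 and Thbs1 0.39, and in low-stress cells Amotl2 was 0.31. Ccn1 in female osteo-primed cells was 0.25. Thbs1 in CAR stromal-like cells was 0.0945 in female cells and 0.0818 without cluster 2. The dissociation list's median turned to 0.0641 in CAR stromal-like cells with equal stress mix, and in osteoblast-like cells to 0.0991 with equal cluster mix and 0.25 in male cells. The stress mix is cut on this list's own share of UMIs, so it evens the list between pools by construction.

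No share over all genes was taken for the alternative settings, so the member counts that follow stand without one. Members past 1.5-fold higher in osteoblast-like cells numbered 1, not 0, on total counts, in female cells and without cluster 8. Those lower in CAR stromal-like cells numbered 0, not 1, with the stricter filter, equal cluster or stress mix, a fold of 2 and without cluster 2. They numbered 2 at Leiden resolutions 0.5 and 2.0, with listed genes left out of the clustering, and in male cells; leaving out 1 lane gave 0 to 1. At the 3 other clusterings 51 control cells called pericyte-like here joined that class. With the stricter filter 42 did, and that class held 521 control and 154 immobilized cells. Osteo-primed cells then numbered 163 and 230, and osteoblast-like cells 206 and 112. Members past 1.5-fold lower in osteo-primed cells numbered 0, not 1, with the stricter filter, clustering without listed genes, female cells, equal stress or sex mix and a fold of 2. Those lower in osteoblast-like cells numbered 2, not 1, with the stricter filter and 0 with the looser filter, equal cluster mix, male cells and a fold of 2; leaving out 1 lane gave 1 to 2.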

Other observations

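Outside the 3 classes the members had other sites of high level. Piezo2 was highest in endothelial-like cells, at 455 CPM in 9 control cells and 738 CPM in 17 immobilized cells, and was at 78.5 and 105 CPM in 60 and 7 pericyte-like cells, while osteocyte-like and haematopoietic-like cells had none. Piezo1 was at 244 and 218 CPM in erythroid-like cells, at 469 and 292 CPM in osteocyte-like cells and at 108 and 362 CPM in endothelial-like cells. Wwtr1 was at 347 and 753 CPM in endothelial-like cells. Ccn1 was at 1032 and 448 CPM in pericyte-like cells. Ccn2 was at 938 CPM (513 to 1574, from 14 UMIs) and 584 CPM (442 to 756) in osteocyte-like cells. In the control pool that was above the osteo-primed level. In the immobilized pool the interval overlapped that of osteo-primed cells (509 to 571). Ccn2 was at 326 and 158 CPM in pericyte-like cells and at 81.3 and 405 CPM in endothelial-like cells. Tead1 was at 570 and 533 CPM in osteocyte-like cells, which numbered 5 and 42, so values in the control pool rest on few UMIs.

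Haematopoietic-like cells, 69 in the control pool and 111 in the immobilized pool, had 0 CPM of Yap1 in both pools and 0 and 4.48 CPM of Wwtr1, 0 and 5.97 CPM of Tead1, and 4.66 and 2.99 CPM of Ccn2. Thbs1 stood apart there, with 445 and 164 CPM in granulocyte-like cells, lower in the immobilized pool as it was in the stromal classes.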
